A study of Mus musculus with 18 samples.

Results

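Kinesins, cytoplasmic dynein, dynactin and the tubulins they move along were measured in mouse oculomotor nucleus and cervical spinal cord. The members are all probe sets whose single gene symbol in the array annotation begins as a kinesin (Kif), kinesin light chain (Klc), dynein (Dync, Dynl), dynactin (Dctn) or alpha- or beta-tubulin (Tuba, Tubb) symbol. That rule gave 118 probe sets of 58 genes, out of 22626 probe sets that are not array controls, and it used no measured value. A further 10 probe sets that match the rule carry several symbols, among them copies of Tuba1 and Dynlt1, and were left out.

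The study compared a motor nucleus that is spared in amyotrophic lateral sclerosis (ALS), the oculomotor nucleus, with cervical spinal cord, which is affected. Total RNA was hybridised to Affymetrix Mouse 430A arrays in 6 groups of 3 arrays. Both regions came from mutants of an ALS model aged 6 weeks, from such mutants aged 10 weeks and from controls aged 10 weeks. The labels name no mutation, strain or pooling, no control of 6 weeks was measured, and nothing says that the arrays of a group stand for separate animals, so the p-values below weigh differences against the scatter of these arrays, which may be technical. Control spinal cord replicate 1 was not used: its correlation with the other arrays across probe sets lay between 0.0124 and 0.0163, against 0.9549 to 0.9851 among the 17 arrays used, which leaves 2 arrays in that group.

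Microtubules are hollow polymers of alpha- and beta-tubulin that run the length of an axon. Most kinesins walk outward along them with vesicles, mitochondria and other cargo, while dynein, held to its cargo by dynactin, walks back toward the cell body. Motor neurons, with their long axons, are sensitive to faults in this traffic: inherited mutations of KIF5A, DCTN1 and TUBA4A are linked to human ALS, and mutations of KIF21A, TUBB3 and TUBB2B disturb the development of the oculomotor nerve.

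Values are array signals, and each log2 difference was computed on log2(signal + 25) and is given with its standard error (SE). Of the members, 80 probe sets of 43 genes passed a filter on mean signal, which removed the dimmest 40%, and 13576 probe sets in all were tested. A probe set is "called" where its limma p, adjusted over these 13576, was under 0.05, with 3 arrays per group (2 for control spinal cord). Groups are said to separate where every array of one lies above every array of the other. Since the signal of a probe set depends on its probes, levels are compared only between arrays and never between probe sets. In bulk tissue, fewer cells of a type and less RNA per cell cannot be told apart.

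The promoters of 4 of the genes on which the results below turn are shown first: Kif5c, with the largest genotype difference of the members, Klc1 and Dynlt3, each with a probe set called in all 3 regional comparisons, and Tubb2a, called between the regions in mutants of both ages. Kifc2 also had a probe set called in all 3, but no promoter sequence was available for it. Each run holds 250 bases before the annotated start and 50 after it, read 5′ to 3′ on the gene's strand from RefSeq for GRCm38.p6, at chr2:49619036-49619335 (plus strand) for Kif5c, chr12:111758618-111758917 (plus) for Klc1, chrX:9662934-9663233 (minus) for Dynlt3 and chr13:34077959-34078258 (minus) for Tubb2a. Capitals mark matches, on either strand, to the letters GGGCGG (known as the GC box), CCAAT (named for its own letters), TATAAA (known as the TATA box), TGACGTCA (the cyclic AMP response element) or CACGTG (the E-box). None of these motifs contains another.
Kif5c: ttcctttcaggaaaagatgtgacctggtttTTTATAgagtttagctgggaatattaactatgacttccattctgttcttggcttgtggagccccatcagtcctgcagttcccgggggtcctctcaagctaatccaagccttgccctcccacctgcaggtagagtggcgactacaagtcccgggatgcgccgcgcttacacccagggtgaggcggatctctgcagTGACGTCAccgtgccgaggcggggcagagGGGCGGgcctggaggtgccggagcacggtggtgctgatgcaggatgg
Klc1: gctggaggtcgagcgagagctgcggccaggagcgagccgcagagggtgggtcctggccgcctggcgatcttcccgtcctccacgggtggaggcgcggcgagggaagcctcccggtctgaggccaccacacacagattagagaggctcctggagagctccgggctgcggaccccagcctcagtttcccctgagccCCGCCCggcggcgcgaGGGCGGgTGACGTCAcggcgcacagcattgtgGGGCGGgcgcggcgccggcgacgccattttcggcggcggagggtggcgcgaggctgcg
Dynlt3: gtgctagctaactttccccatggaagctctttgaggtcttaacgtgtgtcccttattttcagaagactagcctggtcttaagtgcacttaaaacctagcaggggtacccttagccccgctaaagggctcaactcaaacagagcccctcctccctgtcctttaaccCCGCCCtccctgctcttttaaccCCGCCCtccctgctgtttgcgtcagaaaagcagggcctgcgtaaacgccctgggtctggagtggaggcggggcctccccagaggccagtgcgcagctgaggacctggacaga
Tubb2a: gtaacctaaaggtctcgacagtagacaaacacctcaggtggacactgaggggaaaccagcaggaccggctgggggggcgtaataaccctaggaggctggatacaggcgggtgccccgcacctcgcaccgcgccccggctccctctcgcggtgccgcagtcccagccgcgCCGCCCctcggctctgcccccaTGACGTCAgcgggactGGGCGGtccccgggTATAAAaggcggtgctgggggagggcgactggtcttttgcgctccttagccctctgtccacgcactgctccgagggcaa

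The cyclic AMP response element stood 26 bases before the start in Kif5c, 33 in Klc1 and 59 in Tubb2a, and Tubb2a also had a TATA box 29 bases before its start. The Dynlt3 window held only GC boxes, 85 and 62 bases before the start. Of the member genes, 46 had a promoter in the table, and the cyclic AMP response element was found in 6 of them (13%): Dctn3, Kif17, Kif18a, Kif5c, Klc1 and Tubb2a. It was found in 1.79% of all 32851 promoters. A GC box stood in 31 of the 46 genes, against 35.7% of all promoters. A CCAAT box stood in 21 (37.4% of all promoters), an E-box in 4 (7.15%) and a TATA box in 5 (13.6%). The members were counted by gene and the background by promoter, over all promoters and not those of genes on the array. The 2 kinds of share are therefore not like for like, and enrichment in the members was not tested. These are matches of letters, and their use in these tissues was not measured.

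Between the regions, the clearest member differences were a higher signal of the minus-end kinesin Kifc2, the synaptic vesicle kinesin Kif1a and the tubulin Tubb2a in the oculomotor nucleus, and a higher signal of the light chains Klc1 and Dynlt3 in spinal cord. At 6 weeks in mutants, 19 of the 80 member probe sets were called, 8 with more and 11 with less signal in the oculomotor nucleus, where 23.9% of all tested probe sets were called (12.2% higher, 11.7% lower). Under median centring 6 members were higher and 13 lower, and of all tested 1251 were higher and 1897 lower, against 1656 and 1583. In controls of 10 weeks 10 were called (4 higher, 6 lower; 13.5% of all tested, 6.61% higher and 6.92% lower), and in mutants of 10 weeks 9 were called (5 higher, 4 lower; 19.3% of all tested, 9.3% higher and 10% lower). The members' shares, 23.8%, 12.5% and 11.2%, lie near or below that background. The median log2 difference of the 80 was 0.028, -0.044 and -0.054, against 0.034, 0.014 and 0.001 over all tested probe sets. The arrays of the regions did not overlap for 32, 38 and 25 of the 80, against 37.4%, 46% and 36% of all tested. A call in at least 1 of the 3 comparisons fell on 25 probe sets of 18 genes, in all 3 on 3 probe sets, and in opposite directions on none. The difference kept 1 sign in all 3 comparisons for 18 of these 25 probe sets. The same counts were not made over all tested probe sets, so they have no background here.

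**Figure D1:**
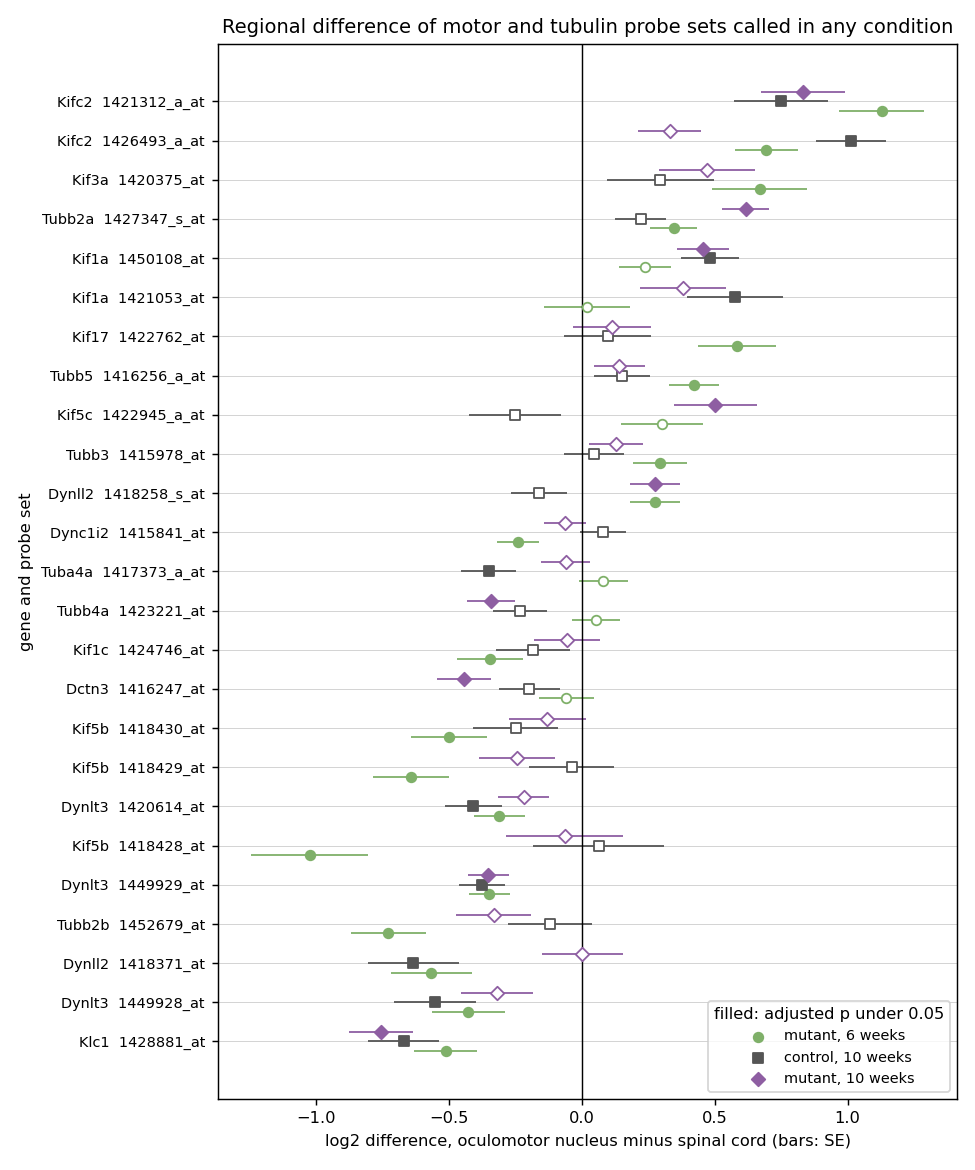
Log2 difference between oculomotor nucleus and spinal cord, with its SE, for the 25 member probe sets called in at least 1 condition, 1 row per probe set and 1 marker per condition (filled where called). The differences of both Kifc2 probe sets run from 0.33 to 1.13, and those of Klc1 1428881_at from -0.76 to -0.51.

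Cell type markers moved with these differences. Of 8 tested motor neuron markers, 7, 7 and 8 were called lower in the oculomotor nucleus in the 3 comparisons (6-week mutants, controls, 10-week mutants), and their summed signal (10 markers on the array) was 7880 to 10400 in oculomotor arrays and 18200 to 21900 in spinal cord arrays. Of 16 oligodendrocyte markers, 10, 15 and 12 were called lower, and their sums were 53300 to 85500 and 82100 to 101000. Of 18 general neuronal markers, 9, 6 and 6 were called higher and 1, 2 and 2 lower. Of 7 dopaminergic markers, which the oculomotor dissection could include from its neighbours, 6, 6 and 5 were called higher. Meningeal markers were called lower for 12, 11 and 12 of 13, with 1 called higher in the last comparison. Of 11 tested microglial markers 6, 4 and 8 were called lower, and the sums of the 14 on the array were 6390 to 7560 in oculomotor and 8760 to 13200 in spinal cord arrays. Of 14 astrocyte markers 6, 4 and 5 were called lower and 2, 1 and 1 higher, with sums of 35300 to 41400 and 49300 to 57800. The part of these markers in the member differences was not tested.

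Kifc2 encodes a kinesin-14, a neuronal motor that walks toward the minus end. For its probe set 1421312_a_at the signals were 1207.6, 1074.3 and 1222.3 in the oculomotor nucleus and 506.8, 568.1 and 488.5 in spinal cord of 6-week mutants, 1326.7, 1443.1 and 1059.7 against 960.1 and 574.5 in controls, and 1136.7, 1062.5 and 1210.9 against 747.9, 521.7 and 629.8 in 10-week mutants. All 9 oculomotor arrays lay above all 8 spinal cord arrays. The log2 differences were 1.13 ± 0.159 (SE, adjusted p = 4.75e-05), 0.75 ± 0.178 (adjusted p = 0.00768) and 0.83 ± 0.159 (adjusted p = 0.00109). In controls the spinal cord arrays stood far apart, and without replicate 3 the difference was 0.39 with an adjusted p of 0.215.

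The second Kifc2 probe set, 1426493_a_at, read 766.8, 660.7 and 643.0 against 430.8, 418.7 and 398.7 at 6 weeks, 963.1, 1048.1 and 944.1 against 513.7 and 439.6 in controls, and 585.4, 585.6 and 783.6 against 496.2, 551.7 and 479.8 in 10-week mutants. The oculomotor arrays again lay above those of spinal cord in each condition. The differences were 0.69 ± 0.118, 1.01 ± 0.132 and 0.33 ± 0.118 (adjusted p = 0.000293, 3.28e-05 and 0.0568), so the last was not called. The other tested kinesin-14, Kifc3, was not called in any comparison, with regional differences of 0.08, -0.22 and -0.36.

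**Figure D2:**
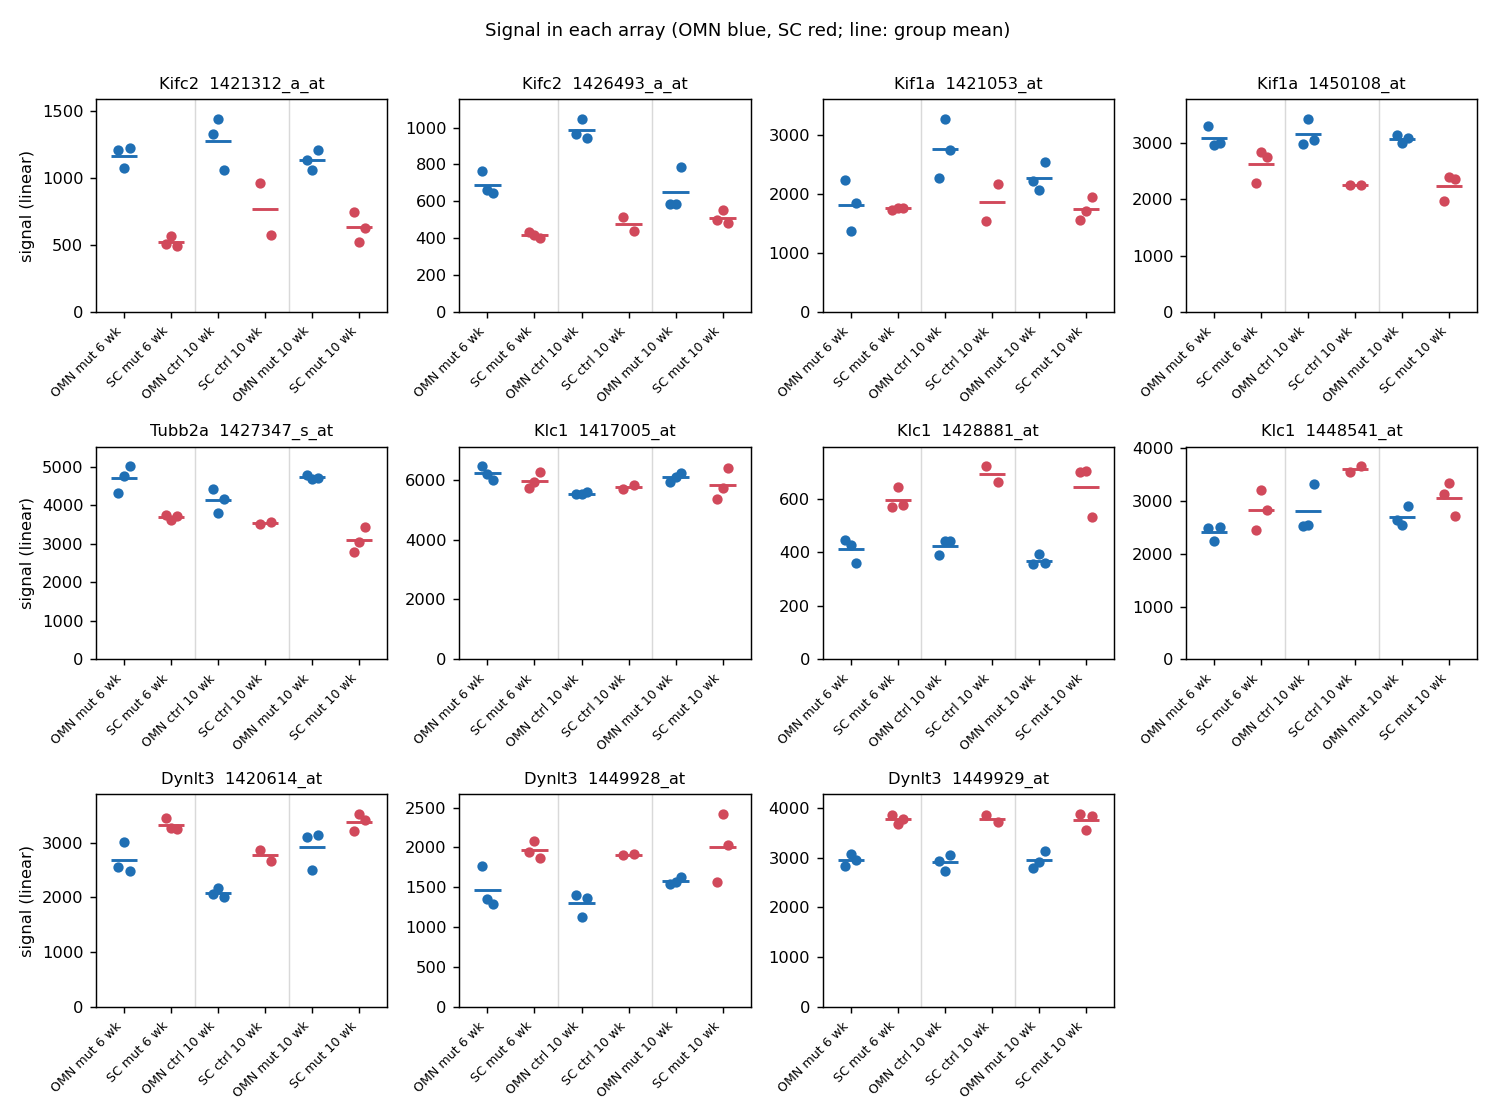
Array signal (linear scale, from 0) of the 11 tested probe sets of Kifc2, Kif1a, Tubb2a, Klc1 and Dynlt3 in each of the 6 groups, with 1 point per array and a line at the group mean, oculomotor nucleus (OMN) in blue and spinal cord (SC) in red. Both Kifc2 panels, Kif1a 1450108_at and Tubb2a show the oculomotor arrays above the spinal cord arrays in each condition, Klc1 1428881_at and Dynlt3 1449929_at show them below, and Klc1 1417005_at shows overlapping groups at 6 weeks and in 10-week mutants.

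Kinesin-1, the main fast anterograde motor, is built from the heavy chains Kif5a, Kif5b and Kif5c and from light chains that bind cargo. Kif5b, the heavy chain made in most cell types, is read by 5 tested probe sets, with regional differences of -1.02 to -0.22 in 6-week mutants. Of these, 3 were called lower in the oculomotor nucleus. For 1418428_at the signals were 187.7, 226.8 and 286.5 in the oculomotor nucleus and 534.0, 361.6 and 624.8 in spinal cord. The arrays did not overlap, and the difference was -1.02 ± 0.22 (adjusted p = 0.00225).

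For Kif5b 1418429_at the 6-week signals were 697.6, 669.6 and 1006.1 against 1234.8, 1148.2 and 1307.9, also without overlap (difference -0.64 ± 0.143, adjusted p = 0.00298). For 1418430_at they were 1487.2, 1726.0 and 1605.5 against 2119.7, 2292.9 and 2429.4 (-0.50 ± 0.144, adjusted p = 0.0166), a call that ended without oculomotor replicate 1 (adjusted p = 0.0589) or spinal cord replicate 3 (0.0617). The same 3 probe sets gave 0.06, -0.04 and -0.25 in controls and -0.07, -0.24 and -0.13 in 10-week mutants, and no Kif5b probe set was called there. Another, 1418431_at, gave -0.43 at 6 weeks (adjusted p = 0.0711) and -0.565 in controls (adjusted p = 0.0529), neither called. Some alternatives called its control difference, among them quantile normalization (adjusted p = 0.0488) and median centring (0.0434). Whether the regional difference of mutants changed between 6 and 10 weeks was tested directly: the change was 0.96 ± 0.311 for 1418428_at (adjusted p = 0.156) and was not called for any Kif5b probe set.

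**Figure D3:**
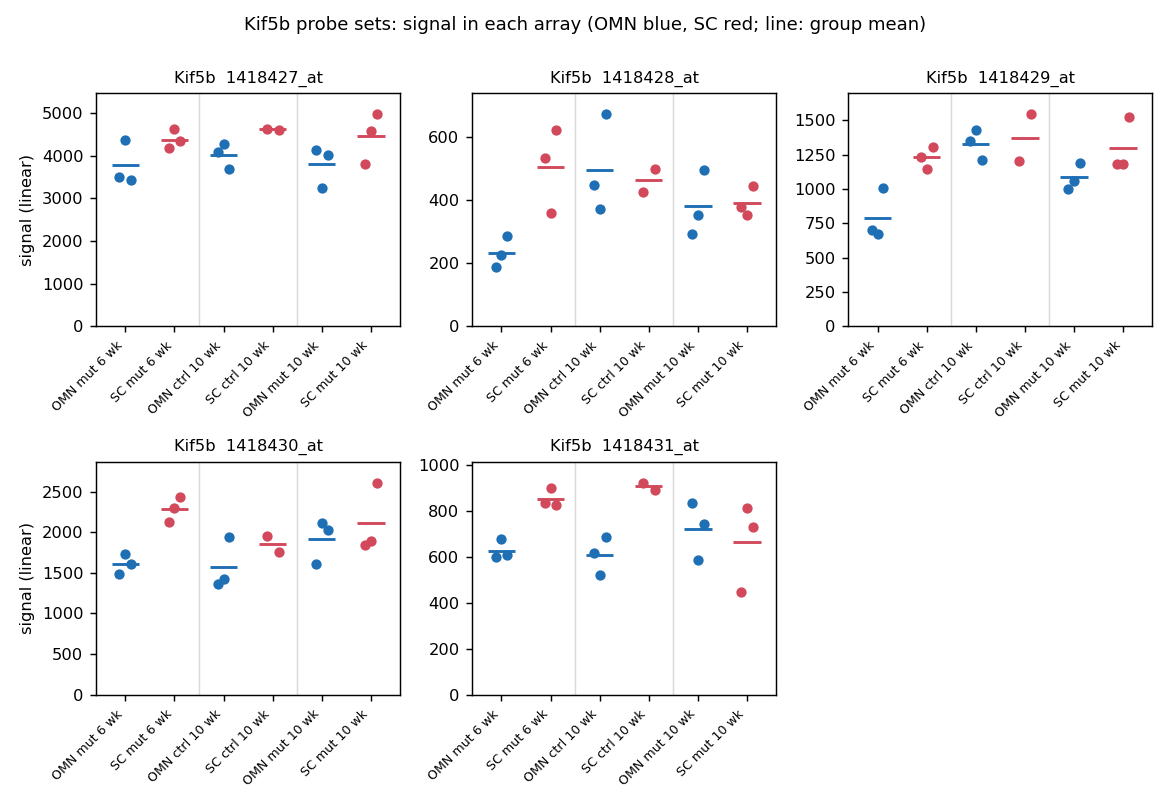
Array signal (linear scale, from 0) of the 5 Kif5b probe sets in each group, with 1 point per array and a line at the group mean, oculomotor nucleus (OMN) in blue and spinal cord (SC) in red. The 6-week mutant groups separate for 1418428_at, 1418429_at, 1418430_at and 1418431_at, and overlap for 1418427_at.

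Kif5a, the neuronal heavy chain linked to ALS, is read by 1 tested probe set. Its signals were 2345.6, 1228.9 and 1492.5 against 1063.5, 1343.4 and 1283.4 at 6 weeks, 2253.4, 2330.0 and 2325.4 against 1818.6 and 2007.0 in controls, and 1975.7, 1583.6 and 2102.0 against 1468.3, 1855.0 and 1618.5 in 10-week mutants. The groups overlapped in mutants of both ages and separated in controls. No single regional comparison was called (0.40, 0.27 and 0.19), and their mean was 0.29 ± 0.102 (adjusted p = 0.0333), a call lost when any of 6 arrays was left out (adjusted p up to 0.0907, without control spinal cord replicate 2).

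Klc1 is the main neuronal kinesin light chain and is spliced into many forms. It is read by 3 probe sets. For 1428881_at the signals were 446.9, 428.6 and 362.4 against 571.9, 647.1 and 576.1 at 6 weeks, 391.9, 444.0 and 442.4 against 723.2 and 662.4 in controls, and 355.1, 393.5 and 360.7 against 700.6, 706.4 and 532.3 in 10-week mutants. All oculomotor arrays lay below all spinal cord arrays. The differences were -0.51 ± 0.119, -0.67 ± 0.133 and -0.76 ± 0.119 (adjusted p = 0.00405, 0.00194 and 0.00017), and each call held with any 1 array left out.

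Klc1 1417005_at read 5349.2 to 6455.0 over all 17 arrays and differed by 0.06, -0.06 and 0.07 between the regions, none of them called. Klc1 1448541_at differed by -0.22, -0.37 and -0.17, with only the mean of the 3 called (-0.26 ± 0.07, adjusted p = 0.0068). The other light chain tested, Klc4, had a mean difference of 0.30 ± 0.101 by 1417108_at (adjusted p = 0.0251) that lost its call when any of 4 arrays was left out (adjusted p up to 0.0878, without control spinal cord replicate 3). Its second probe set was not called in any comparison.

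Kinesin-2 motors carry vesicles in axons and particles in cilia. The 9 tested probe sets of Kif3a, Kif3b, Kif3c and Kif17 had a median regional difference of 0.27, 0.27 and -0.05, and 2 were called, both at 6 weeks. Kif17, a dendritic motor that carries NMDA receptor subunits, read 459.2, 500.6 and 421.7 against 277.8, 307.1 and 310.5 there by 1422762_at. These arrays separate (0.58 ± 0.147, adjusted p = 0.00714), while in controls and 10-week mutants the differences were 0.10 and 0.11. The other tested Kif17 probe set, 1419827_s_at, gave 0.23 at 6 weeks, 0.38 in controls and -0.23 in 10-week mutants, none called.

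Kif3a 1420375_at read 1372.6, 1400.0 and 932.4 against 707.6, 956.9 and 633.9 at 6 weeks. One oculomotor array lay just below the highest spinal cord array. The difference was 0.67 ± 0.18 (adjusted p = 0.0111) and lost its call without oculomotor replicate 2 (adjusted p = 0.0557) or spinal cord replicate 3 (0.0602). Over the 3 conditions the mean difference of Kif3a was 0.48 ± 0.108 by this probe set and 0.26 ± 0.062 by 1449841_at, both called with any 1 array left out.

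Kinesin-3 motors carry synaptic and dense-core vesicles, and Kif1a is the neuronal one. Kif1a 1450108_at read 3313.0, 2974.8 and 3015.1 against 2300.7, 2842.2 and 2763.6 at 6 weeks, 2986.7, 3437.4 and 3063.3 against 2255.3 and 2253.9 in controls, and 3144.3, 3006.6 and 3099.8 against 1969.7, 2405.1 and 2367.6 in 10-week mutants. The oculomotor arrays were higher without overlap in each condition. The differences were 0.24 ± 0.097, 0.48 ± 0.109 and 0.46 ± 0.097 (adjusted p = 0.0858, 0.00545 and 0.00265). The control call ended without spinal cord replicate 2 (adjusted p = 0.0511).

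The other Kif1a probe set, 1421053_at, was called in controls but not in mutants of either age (0.58 ± 0.181, adjusted p = 0.0401), and there without oculomotor replicate 2 or 3 or spinal cord replicate 2 it was not (adjusted p = 0.161, 0.0793 and 0.469). Kif1c, a kinesin-3 of many tissues, was lower in the oculomotor nucleus at 6 weeks by 1424746_at (-0.35 ± 0.124, adjusted p = 0.0494). The call held only without oculomotor replicate 3 among the 6 single omissions (adjusted p up to 0.179, without spinal cord replicate 3). It ended under quantile normalization (0.0653). The other tested Kif1c probe set, 1424747_at, differed by 0.07 at 6 weeks and was not called. Kif1b, which carries mitochondria and synaptic vesicle precursors, has 6 tested probe sets, and none was called in any of the 3 conditions. Their mean regional difference ran from -0.26 to 0.05 and was called lower for 1423994_at and 1423995_at. The call of 1423994_at held with any 1 of the 17 arrays left out (adjusted p up to 0.0406). That of 1423995_at ended with 9 of the 17 single omissions (adjusted p up to 0.125). Kif13a and Kif16b were not called.

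Kif21a, the kinesin-4 whose mutation in humans disturbs the oculomotor nerve, was not called between the regions: its differences were -0.02, 0.14 and 0.24 (SE 0.111, 0.124 and 0.111). Kif2a, a kinesin-13 that takes microtubules apart, had 4 tested probe sets with differences from -0.45 to 0.30 and no call. The mitotic kinesins are motors of dividing cells, and 16 of their 18 probe sets did not pass the filter. The members with no tested probe set were Kif4, Kif9, Kif11, Kif12, Kif18a, Kif20a, Kif21b, Kif23, Kifc1, Kifc5b, Klc3, Dynlt1f, Tuba3b, Tubb2a-ps2 and Tubb6.

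Cytoplasmic dynein has a heavy chain that walks, intermediate chains that hold dynactin, and small light chains. The heavy chain Dync1h1 differed by -0.05, -0.10 and 0.06 between the regions, and the light intermediate chain Dync1li1 by 0.15, 0.10 and 0.12, none called. Of the intermediate chains, Dync1i2 was lower in the oculomotor nucleus at 6 weeks. Its signals were 1115.6, 1160.7 and 1107.1 against 1367.2, 1260.7 and 1385.5, without overlap. The difference was -0.24 ± 0.078 (adjusted p = 0.0308), and the call ended without oculomotor replicate 1 or 3 or spinal cord replicate 1 or 3 (adjusted p = 0.0666, 0.0809, 0.0906 and 0.0984) and under quantile normalization (0.0906). Dync1i1, the neuronal form, had a mean difference of 0.22 ± 0.081 (adjusted p = 0.0409) that ended with 11 of the 17 single omissions (adjusted p up to 0.182, without control spinal cord replicate 2).

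Among the light chains, Dynlt3, of the Tctex family, was lower in the oculomotor nucleus by all 3 of its probe sets. For 1449929_at the signals were 2842.2, 3076.6 and 2957.4 against 3862.1, 3674.9 and 3787.1 at 6 weeks, 2932.1, 2737.6 and 3065.7 against 3856.7 and 3710.8 in controls, and 2784.6, 2919.3 and 3134.9 against 3887.9, 3565.4 and 3844.9 in 10-week mutants. No oculomotor array reached the lowest spinal cord array. The differences were close to each other, -0.35 ± 0.077, -0.38 ± 0.086 and -0.35 ± 0.077 (adjusted p = 0.00268, 0.00567 and 0.00315). The control call ended without spinal cord replicate 2 (adjusted p = 0.0738).

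The other Dynlt3 probe sets were called at 6 weeks and in controls. For 1420614_at the differences were -0.31 and -0.41 (adjusted p = 0.0248 and 0.0149) and for 1449928_at -0.43 and -0.55 (adjusted p = 0.0295 and 0.0204). At 6 weeks the first lost its call without oculomotor replicate 1 or 3 or spinal cord replicate 1, and the second without oculomotor replicate 2 or 3 or spinal cord replicate 1 or 2 (adjusted p up to 0.0991 and 0.122), as the second did under quantile normalization (0.0597). In controls the first lost it without spinal cord replicate 2 (adjusted p = 0.154), and the second without that array, spinal cord replicate 3 or oculomotor replicate 2 (adjusted p = 0.117, 0.1 and 0.091). In 10-week mutants they gave -0.22 and -0.32 and were not called.

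Dynll2, an LC8 light chain shared with myosin V, gave opposite calls by its 2 probe sets at 6 weeks, the only gene among the members to do so. For 1418258_s_at the oculomotor signals were higher, 9669.6, 10915.5 and 10824.6 against 9242.0, 8953.3 and 7769.2 (0.28 ± 0.094, adjusted p = 0.0403). For 1418371_at they were lower, 1907.1, 1841.8 and 1745.8 against 2718.7, 2954.3 and 2509.6 (-0.57 ± 0.153, adjusted p = 0.0113). Both sets of arrays separate. The first call was the weaker: it ended without oculomotor replicate 2 or 3 or spinal cord replicate 2 or 3 (adjusted p = 0.123, 0.108, 0.0575 and 0.181), and under quantile normalization the difference was 0.04. The second held with any 1 array left out.

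At 10 weeks Dynll2 1418371_at was also called in controls (-0.64 ± 0.171, adjusted p = 0.0174), where only the omission of oculomotor replicate 3 kept the call (adjusted p up to 0.117), and gave 0.00 in mutants. Dynll2 1418258_s_at was called in 10-week mutants (0.28 ± 0.094, adjusted p = 0.0465), where only the omission of spinal cord replicate 2 kept it (adjusted p up to 0.233, without spinal cord replicate 1). The closely related Dynll1, with 3 probe sets, differed by -0.14 to 0.07 and the roadblock chain Dynlrb1 by -0.14 to 0.10. None of these was called.

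All 11 dynactin probe sets, of 6 genes, passed the filter, and 1 was called in a single condition. Dctn3, a small subunit of the dynactin shoulder, read 1326.4, 1541.2 and 1476.5 in the oculomotor nucleus and 2026.3, 2011.5 and 1886.0 in spinal cord of 10-week mutants. The arrays separate, and the difference was -0.44 ± 0.102 (adjusted p = 0.00487). In 6-week mutants and controls it was -0.06 and -0.20. Dctn1, the large subunit linked to ALS, differed by 0.11, 0.12 and 0.15 by 1422521_at and by 0.08, -0.02 and -0.02 by 1435414_s_at. Dctn2 (-0.10, 0.13 and 0.01) and the pointed-end subunits Dctn5 and Dctn6 were not called. Of 4 Dctn4 probe sets, 1420862_at was called in the mean of the conditions (-0.23 ± 0.058, adjusted p = 0.00425).

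Tubulin genes code for near-identical proteins, so probe sets marked _x_at or _s_at can share signal between copies, and the values of Tubb2a (1427347_s_at) and Tuba1a (1418884_x_at) are uncertain in that respect. Tubb2a was higher in the oculomotor nucleus, with a call in mutants of both ages and none in controls. Its signals were 4334.1, 4777.6 and 5018.5 against 3741.6, 3624.0 and 3727.1 at 6 weeks, 4437.5, 3811.1 and 4167.8 against 3510.5 and 3569.7 in controls, and 4786.9, 4697.7 and 4713.8 against 2778.6, 3052.7 and 3439.8 in 10-week mutants. The groups separate in each condition. The differences were 0.34 ± 0.087 and 0.62 ± 0.087 in mutants of 6 and 10 weeks (adjusted p = 0.00704 and 5.27e-05), and 0.22 in controls, not called. Under quantile normalization the control difference was 0.276 and was called (adjusted p = 0.0483).

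Tubb2b, a beta-tubulin of young neurons and glia, went the other way at 6 weeks. Its signals were 498.6, 466.6 and 481.9 in the oculomotor nucleus and 992.8, 768.9 and 710.1 in spinal cord, a clear gap (-0.73 ± 0.141, adjusted p = 0.000942). In controls and 10-week mutants it differed by -0.12 and -0.33, not called. Tubb5 1416256_a_at was higher at 6 weeks (0.42 ± 0.095, adjusted p = 0.00317), with 7822.9, 8512.8 and 7433.5 against 5928.0, 6359.4 and 5430.3. Under quantile normalization it was 0.24 with an adjusted p of 0.0634. The other tested Tubb5 probe set, 1455719_at, went the other way without a call: its differences were -0.08, -0.24 and -0.33, against 0.42, 0.15 and 0.14 for the first.

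The neuron-specific Tubb3 was higher at 6 weeks, with 1533.9, 1786.4 and 1516.2 against 1267.6, 1360.4 and 1297.7. These arrays separate, and the difference of 0.29 ± 0.101 just passed (adjusted p = 0.0432). It was kept only without oculomotor replicate 3 among the 6 single omissions (adjusted p up to 0.183, without oculomotor replicate 2), and median centring ended it (0.12). Tubb4a, the beta-tubulin of myelinating oligodendrocytes and of neurons, was lower in 10-week mutants (-0.34 ± 0.091, adjusted p = 0.0128), and lost its call without oculomotor replicate 1 (adjusted p = 0.0802) or spinal cord replicate 1 (0.0503).

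Tuba4a, the alpha-tubulin linked to ALS, was lower in the oculomotor nucleus of controls by 1417373_a_at. Its signals were 7827.8, 6547.7 and 8316.6 against 9670.4 and 9528.2, without overlap (-0.35 ± 0.104, adjusted p = 0.0311). The call ended without oculomotor replicate 2 or spinal cord replicate 2 or 3 (adjusted p = 0.147, 0.168 and 0.108) and under quantile normalization (0.123), and the second tested probe set, 1417374_at, differed by -0.11. Tubb4b (2 tested probe sets), Tuba8 and Tuba1a were not called between the regions.

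Over the mean of the 3 regional comparisons, 31 of the 80 members were called (12 higher, 19 lower), against 37.7% of all tested probe sets (20% and 17.7%). Of these calls, 21 held with any 1 of the 17 arrays left out. They include both Kifc2 probe sets (0.90 ± 0.096 and 0.68 ± 0.071), Tubb2a (0.39 ± 0.052), Kif1a 1450108_at (0.39 ± 0.059), Klc1 1428881_at (-0.65 ± 0.072), all 3 of Dynlt3 (-0.31, -0.43 and -0.36) and Tubb2b (-0.39 ± 0.084). By class, 6 of 8 kinesin-1 heavy chain probe sets were called (5 lower, all of Kif5b, and Kif5a higher), 4 of 8 beta-tubulins, 2 of 11 dynactins and none of 4 alpha-tubulins. Of the 5 lower Kif5b calls, those of 1418428_at and 1418431_at ended with 12 and 9 of the 17 single omissions (adjusted p up to 0.13 and 0.0751).

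The genotype comparison at 10 weeks asks which motor and tubulin transcripts differ between mutant and control mice within a region, and it shares its arrays with the regional comparisons of that age. In the oculomotor nucleus 5 of the 80 members were called, against 1.47% of all tested probe sets (1.04% higher, 0.435% lower). Each call was by 1 probe set of its gene: Kif5c, Dynll2 and Dynlt3 were higher in mutants, and Kifc2 and Kif3a were lower. The median difference of the 80 was -0.019 (-0.008 over all tested). In spinal cord limma called none, with a smallest adjusted p of 0.164, against 0.0221% of all tested called. At an unadjusted p under 0.05 stood 7 of the 80, and 1595 of all 13576 tested.

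Kif5c, the neuronal kinesin-1 heavy chain enriched in motor neurons, had the largest genotype difference. By 1422945_a_at its signals in the oculomotor nucleus were 491.4, 655.2 and 633.1 in controls and 1450.0, 1291.7 and 1437.0 in 10-week mutants. The groups lie far apart: 1.21 ± 0.155 on the log2 scale, or 2.31-fold (adjusted p = 0.000863), and 1.08 to 1.28 with any 1 array left out. In spinal cord the signals were 658.5 and 755.9 in controls and 697.0, 1051.7 and 1259.0 in mutants. These groups overlap (0.45 ± 0.174, adjusted p = 0.328). The difference between the regions in this genotype effect was 0.75 ± 0.233 and was not called (adjusted p = 0.734).

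In 6-week mutants Kif5c 1422945_a_at was also high, at 1617.3, 1518.3 and 1605.9 in the oculomotor nucleus and 1384.6, 1237.6 and 1216.7 in spinal cord. All 5 control arrays lay below every mutant array but spinal cord replicate 1 of 10 weeks. At 10 weeks the regional difference of mutants was called (0.50 ± 0.155, adjusted p = 0.0289), and it ended without spinal cord replicate 1 or oculomotor replicate 1 or 3 (adjusted p = 0.172, 0.0905 and 0.081).

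The second Kif5c probe set, 1450804_at, went the other way without a call. Its oculomotor signals were 991.4, 1223.7 and 1112.0 in controls and 954.9, 720.1 and 898.4 in 10-week mutants, which separate (-0.37 ± 0.189, adjusted p = 0.379). This gap of 1.572 between the 2 probe sets was the widest within a gene in any comparison. Over the 17 arrays their log2 signals had a correlation of -0.573, while 1422945_a_at ran most closely with Klc1 1417005_at (0.792), Dynll2 1418258_s_at (0.77) and Dctn1 1435414_s_at (0.724). These correlations describe arrays that share region, genotype and hybridisation.

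**Figure D4:**
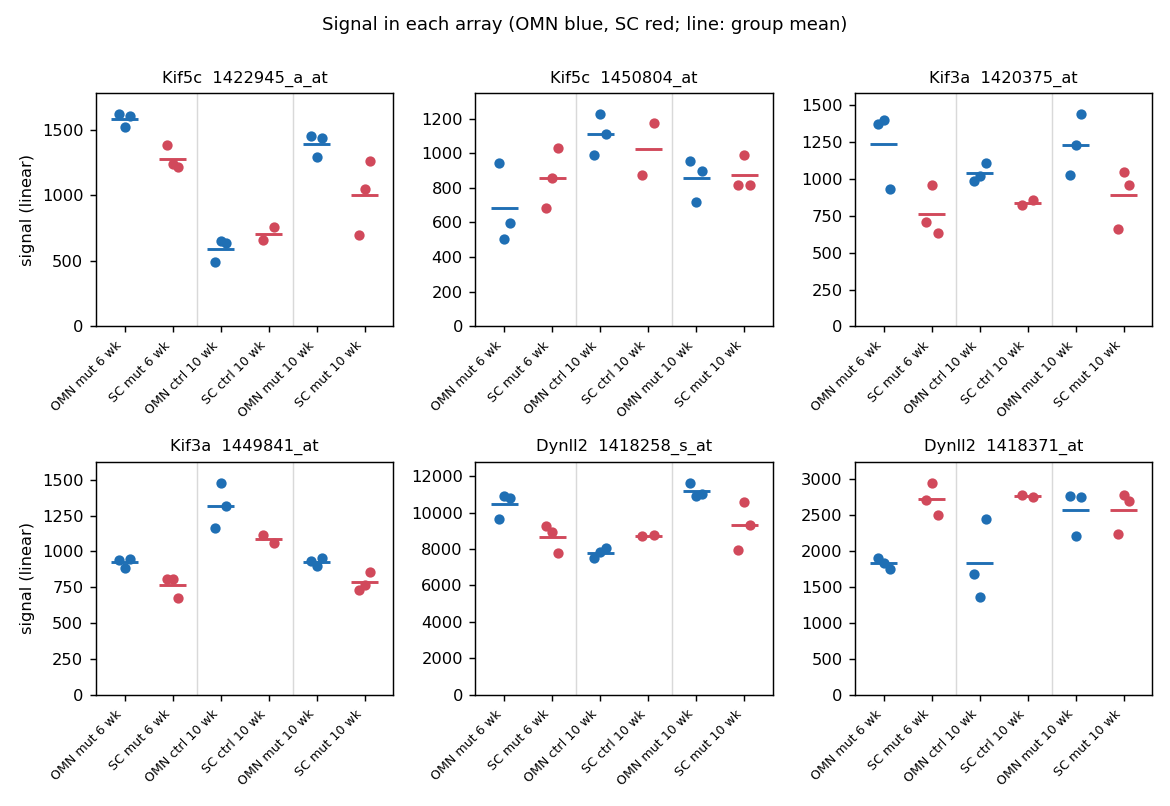
Array signal (linear scale, from 0) of both tested probe sets of Kif5c, Kif3a and Dynll2 in each group, with 1 point per array and a line at the group mean, oculomotor nucleus (OMN) in blue and spinal cord (SC) in red. Kif5c 1422945_a_at shows the 3 control oculomotor arrays at 491.4 to 655.2 and the 10-week mutants at 1291.7 to 1450.0, and Kif3a 1449841_at shows all 5 control arrays above all 12 mutant arrays.

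Kif3a 1449841_at was lower in mutants. In the oculomotor nucleus its signals were 1163.7, 1480.1 and 1319.4 in controls and 931.5, 895.7 and 953.9 in 10-week mutants (-0.49 ± 0.103, adjusted p = 0.0201). In spinal cord they were 1114.4 and 1060.0 in controls and 732.0, 769.0 and 859.9 in mutants (-0.46 ± 0.115), where the adjusted p was 0.164. The groups separate in both regions, and with the 6-week mutants (941.6, 884.2 and 945.9 in the oculomotor nucleus; 809.4, 807.7 and 674.9 in spinal cord) all 12 mutant arrays lay below all 5 control arrays. No other member showed such a gap, which 0.692% of all tested probe sets had. The oculomotor call ended without control replicate 2 or 3 or any of the 3 mutant arrays (adjusted p = 0.0938, 0.0682, 0.0893, 0.0787 and 0.0532). The other Kif3a probe set, 1420375_at, differed by 0.23 ± 0.18 in the oculomotor nucleus and by 0.05 in spinal cord, not called.

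Dynll2 1418258_s_at rose in the mutant oculomotor nucleus, from 7511.0, 7841.6 and 8051.7 in controls to 11642.7, 10897.3 and 11042.2. No arrays overlap (0.52 ± 0.094, adjusted p = 0.00886), and the call ended without control replicate 1 (adjusted p = 0.0548) or mutant replicate 1 (0.0593). Under quantile normalization the difference was 0.28 and not called (adjusted p = 0.0845). In spinal cord the signals were 8692.2 and 8753.3 against 7972.5, 10576.6 and 9333.9 (0.08 ± 0.105). Its other probe set differed by 0.52 ± 0.153 in the oculomotor nucleus (adjusted p = 0.0941), with overlapping arrays, and by 0.76 without control replicate 3 (adjusted p = 0.00849).

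Dynlt3 1420614_at also rose there, from 2057.8, 2172.7 and 2009.7 to 3101.8, 2509.3 and 3148.9, without overlap (0.48 ± 0.096, adjusted p = 0.0166). The call was kept only without control replicate 2 or mutant replicate 2 among the 6 single omissions (adjusted p up to 0.0971). Only 1 of the 3 tested Dynlt3 probe sets was called, and their differences ran from 0.02 to 0.48. Kifc2 1426493_a_at fell from 963.1, 1048.1 and 944.1 to 585.4, 585.6 and 783.6, without overlap (-0.59 ± 0.118, adjusted p = 0.0162), and was kept only without control replicate 3 or mutant replicate 3 (adjusted p up to 0.0971). The other Kifc2 probe set differed by -0.15 and was not called. Tuba1a, a main neuronal alpha-tubulin, read 7898.6, 7558.7 and 8519.7 in controls and 10337.3, 10346.7 and 10544.8 in mutants. These arrays separate, and the difference of 0.38 ± 0.096 missed the threshold (adjusted p = 0.0519).

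**Figure D5:**
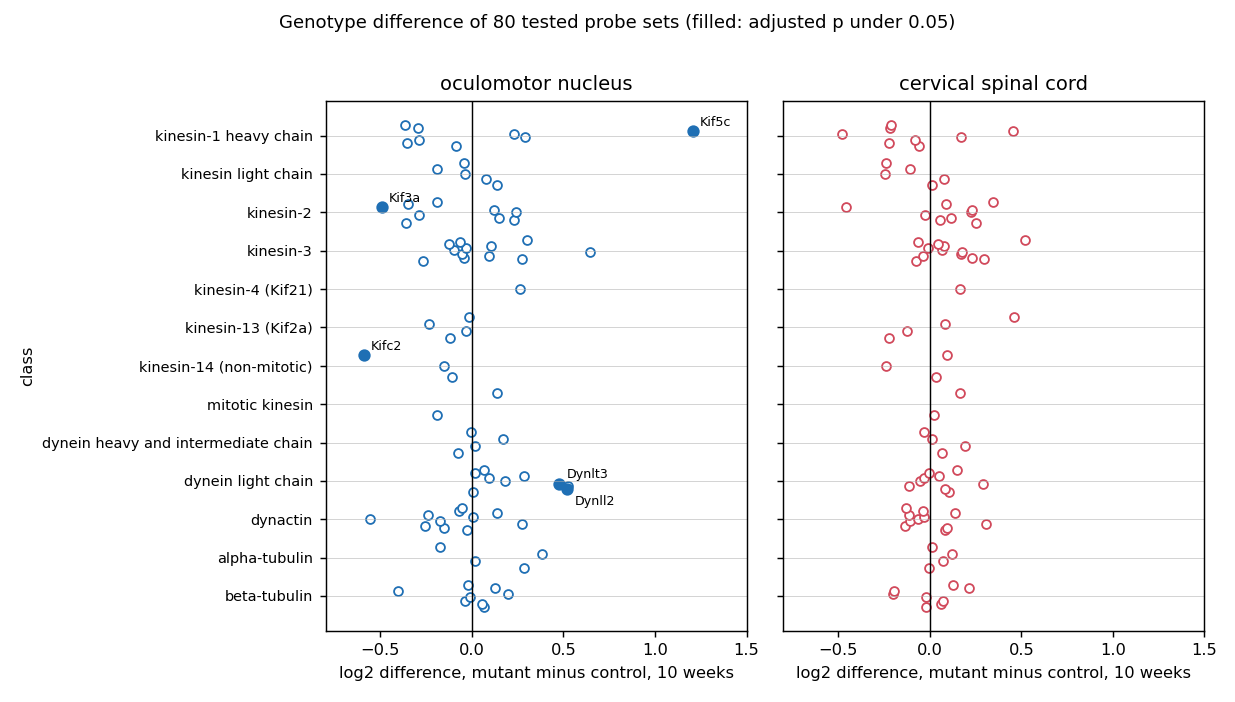
Log2 difference between mutant and control mice at 10 weeks for the 80 tested member probe sets, 1 point each, in rows by class, with the oculomotor nucleus on the left and spinal cord on the right (filled where called). Kif5c at 1.21 stands apart on the left, where 5 points are filled, and none is filled on the right.

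Of the 80 members, 25 separated control from mutant arrays in the oculomotor nucleus and 19 in spinal cord, against 24% and 27.5% of all tested probe sets. The difference of the genotype effect between the regions was not called by limma for any member (smallest adjusted p 0.667, 0% of all tested called). At an unadjusted p under 0.05 stood 9 of the 80, and 835 of all 13576 tested. In the oculomotor nucleus the summed signal of the 16 oligodendrocyte markers was 53300 to 56700 in controls, 63900 to 69500 in 10-week mutants and 83100 to 85500 in 6-week mutants. At 10 weeks the median log2 difference of these markers between genotypes was 0.129, against -0.008 over all tested probe sets. From controls to 10-week mutants the mean signals of Mbp (10500 to 15300) and Cnp (7810 to 11200) rose. Those of Mobp, Mog, Mag, Mal, Aspa, Sox10, Olig1, Qdpr and Gsn also rose. The mean signals of Ugt8a (2870 to 2710), Fa2h (1880 to 1820), Cldn11, Gjb1 and Olig2 fell. Of the 16, 1 was called higher at 10 weeks, as was 1 of 14 astrocyte and 1 of 11 microglial markers. Their part in the genotype differences was not tested. Control oculomotor replicate 3 and 10-week mutant oculomotor replicate 2 carried high signals of pituitary hormone genes, with sums of 6510 and 23700 for 7 genes. Without both arrays 3 members were called in the oculomotor nucleus instead of 5. Dynll2 1418258_s_at, Kifc2 and Kif3a lost their calls (adjusted p = 0.0617, 0.13 and 0.177), Kif5c and Dynlt3 kept theirs, and Dynll2 1418371_at gained one (0.86, adjusted p = 0.00606).

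Age was compared in mutants only, with the arrays used above. From 6 to 10 weeks limma called no member in the oculomotor nucleus (smallest adjusted p 0.296, 0.0221% of all tested called). At an unadjusted p under 0.05 stood 6 of the 80, and 1197 of all 13576 tested. In spinal cord 1 of the 80 was called, against 2.75% of all tested probe sets (1.78% higher). The direction of that background turned with the scaling: 242 probe sets were called higher and 132 lower, but 129 and 298 under median centring, while the 1 member call was higher in both. Of 13 meningeal markers 4 were called lower with age there, and their part in the result was not tested. The arrays of the 2 ages did not overlap for 10 members in the oculomotor nucleus and 14 in spinal cord (14.2% and 23.6% of all tested). The call was for Kif3b, the partner of Kif3a in heterotrimeric kinesin-2, by 1450074_at. Its signals rose from 485.5, 511.9 and 478.2 at 6 weeks to 830.2, 669.7 and 652.2 at 10 weeks, without overlap (0.515 ± 0.123, adjusted p = 0.0325).

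The Kif3b call ended without 6-week replicate 1, 2 or 3 or 10-week replicate 1 (adjusted p = 0.0946, 0.0784, 0.0727 and 0.127), and in a fit of the arrays of the comparison alone (0.0986). Its other 3 probe sets differed by 0.15, 0.49 and 0.24, not called. The age change did not differ between the regions by a limma call for any member (smallest adjusted p 0.143, 0.368% of all tested called). At an unadjusted p under 0.05 stood 13 of the 80, and 2182 of all 13576 tested. The widest gap within a gene in that comparison was between Dctn4 1420863_at (-1.08 ± 0.422) and its other probe sets, of which 1450030_at gave -0.01.

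Beyond the motors, a list of 131 genes that bind, cut, modify or connect to microtubules and motors had 95 genes on the array and 90 tested, each read by its brightest probe set. In the 3 regional comparisons 11, 4 and 9 were called higher in the oculomotor nucleus and 5, 4 and 12 lower. These calls are 17.8%, 8.89% and 23.3% of the 90, where 23.9%, 13.5% and 19.3% of all tested probe sets were called. Under median centring the split at 6 weeks was 8 higher and 10 lower, and in controls 2 and 4. Without control oculomotor replicate 2 the control count was 5, and without 10-week mutant spinal cord replicate 1 the last count was 10. Hap1, which links huntingtin to kinesin and dynactin, was higher by 1.04 ± 0.127, 1.03 ± 0.142 and 0.81 ± 0.127 (6-week mutants, controls, 10-week mutants). Hdac6, which deacetylates tubulin, was higher by 0.64 in controls and 0.68 in 10-week mutants, and Mapt, the axonal protein tau, by 0.31 and 0.60.

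Fez1, a kinesin-1 adaptor, was lower in controls (-0.66) and 10-week mutants (-0.57), and Stmn4, a stathmin that binds free tubulin, was lower in all 3 (-0.50, -0.62 and -0.46). Another stathmin, Stmn1, went the other way at 6 weeks (0.595 ± 0.087, limma adjusted p = 7.08e-05). Madd, listed as a kinesin adaptor, was also higher at 6 weeks (1.016 ± 0.186, limma adjusted p = 0.000597). The list was kept as it stood, with Syngr1, a synaptic vesicle protein rather than a known adaptor, which was higher in oculomotor nucleus at 6 weeks (0.60). Between genotypes limma called none of the list (smallest adjusted p 0.139 in the oculomotor nucleus and 0.284 in spinal cord). At an unadjusted p under 0.05 stood 11 and 5 of the 90, and 2025 and 1595 of all 13576 tested. From 6 to 10 weeks in mutant spinal cord 3 were called lower and none higher, or 3.33% of the 90 against 2.75% of all tested: Map6, which stabilises microtubules (-0.61 ± 0.136, adjusted p = 0.0249), Spast, which severs them (-0.40 ± 0.101, adjusted p = 0.0395), and Mapt (-0.34 ± 0.087, adjusted p = 0.0445). With 1 array of the comparison left out 0 or 1 of the list was called, and 0 in a fit of the compared arrays alone. Tbce, a tubulin folding cofactor, was higher by 0.53 ± 0.153 without a call (adjusted p = 0.0705).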

How the data were processed

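The deposited values are array intensities that the authors computed with MAS5, per the submitters' processing notes; each array's trimmed mean was 500.13 to 500.16, and array medians were 207.0 to 226.05. The members and gene lists were chosen with earlier results of these data known. Probe sets were named from the platform annotation: 20380 of 22626 carry 1 symbol, 691 several and 1555 none. An offset of 25 was added, log2 taken, the dimmest 40% by mean left out, and 1 limma 3.58.1 model (R 4.3.3, lmFit and eBayes with a trend, 6 groups, 17 arrays, 11 residual degrees of freedom) gave 10 contrasts, with Benjamini-Hochberg adjustment over 13576 probe sets. The number of arrays limits the precision. The fit was tested on simulated data.

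Named were up to 8 called members per comparison and direction with the largest differences, the main neuronal members, genes whose probe sets disagree, the brightest member of each class, and up to 4 pathway genes per comparison. The alternatives were other normalizations, offsets and filters, no trend, a fit of the compared arrays alone, all 18 arrays, the replicate number as a block, the brightest probe set of each gene only, a pairwise 2-fold rule, and leaving out each array or both arrays with pituitary signal. The sequences of the array probes were not used here.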

Additional observations from a re-analysis of the deposited data

How the results depend on the processing

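With all 18 arrays, 1 member was called at 6 weeks, 1 in controls, 0 in 10-week mutants, 4 in the regional mean, 0 by genotype in the oculomotor nucleus and 0 by age in spinal cord. Reversed there were, in controls, Tuba4a 1417373_a_at (1.805), Dynll2 1418371_at (0.046), Dynlt3 1420614_at (0.999) and 1449929_at (0.949) and Klc1 1428881_at (0.435), and, in the mean, Dctn3 (0.037), Kif5b 1418427_at (0.307) and 1418429_at (0.07), Dynlt3 1420614_at (0.156) and 1449929_at (0.083), Dctn4 1420862_at (0.044), Tubb4a (0.262), Kif1b 1423994_at (0.537) and Klc1 1448541_at (0.067). With 1 probe set per gene, which tests fewer probe sets, the counts were 11 at 6 weeks, 4 in controls, 18 in the mean and 2 by genotype. The pairwise 2-fold rule gave 2 at 6 weeks, 1 in controls, 0 in 10-week mutants, 1 by genotype and 0 by age. By age in spinal cord, no filter gave 2 and the compared arrays alone 0. Without both arrays with pituitary signal, genotype gave 3.

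Leaving out 1 array gave 13 to 17 calls at 6 weeks, 3 to 11 in controls (3 without spinal cord replicate 2, 6 without oculomotor replicate 2), 7 to 10 in 10-week mutants, 25 to 32 in the mean, 1 to 4 by genotype in the oculomotor nucleus, 0 to 1 in spinal cord (1 without mutant replicate 1) and 0 to 1 by age in spinal cord. By genotype in the oculomotor nucleus quantile normalization split them 2 to 2, against 3 to 2.

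The labels' replicate numbers did not pair the samples: deviations of same-numbered arrays correlated at -0.089 to 0.13 over 19 pairs of arrays, and in 8 of these 19 the first array lay closest to its own number in the other group. With the number as a replicate block the counts were 18, 10, 9 and 30 for the regional comparisons and mean, 6 by genotype in the oculomotor nucleus and 1 by age in spinal cord. Over all alternatives, the 75 called results gave 1661 values, of which 1346 kept direction and call, 301 kept only direction and 14 reversed, all of these with all 18 arrays. Calls ended were 8 under quantile normalization, 3 under median centring, 13 with no filter, 9 with no trend and 11 in fits of the compared arrays alone. The cause of these changes was not tested.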
